A study of Homo sapiens with 4 samples.

Results

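The genes described here are 34 targets of the transcription factor p53, chosen by name as well known targets, among 18882 genes listed in at least 1 of the 4 libraries. Their RNA was compared between BT-474 control cells (2 libraries) and BT-474 NRP-1 cells (2 libraries). BT-474 is an established human breast cancer line of the luminal type. The control cells were wild-type and untransfected. The BT-474 NRP-1 cells were stably transfected with a plasmid that expresses neuropilin-1 (NRP-1), a co-receptor for growth factors, and were then selected with Geneticin and isolated as colonies. No library of cells carrying an empty plasmid was used here, so in these libraries transfection, drug selection and colony choice cannot be told apart from NRP-1 itself. The labels number the control libraries 1 and 2 and the NRP-1 libraries 2 and 3, and those numbers are kept below.

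p53 is a DNA-binding factor that is stabilized after DNA damage and other stress and then switches on genes that stop the cell cycle, repair DNA or start cell death. One of its targets, MDM2, marks p53 for degradation, which closes a feedback loop. Many of these genes are also transcribed without active p53, through other factors, and BT-474 is known to carry a missense-mutant p53. p53 binds a pair of adjacent half-sites, and each p53 tetramer covers both.

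The sites below are shown so that the members that hold a recognizable p53 site near a start can be set against those that do not. Promoter windows from RefSeq (GRCh38.p14), from 250 bases before to 50 bases after each annotated start, were matched for 29 of the 34 genes. A half-site of the p53 consensus without mismatch lay in the windows of 8 of these 29 genes (27.6%), against 8.06% of 27305 genes with a window. A pair of half-sites with at most 2 mismatches in all and 0 to 13 bases between them lay in 5 (17.2%), against 3.62%. The consensus reads the same on both strands, and AEN, DDB2, FAS and FDXR, whose pairs include a half-site without mismatch, are counted under both descriptions. A match is a description of letters, and a gene without one may hold its site outside the window. The capitals mark the half-sites.
MDM2, chr12:68808918-68808947, plus strand, half-sites at -94 to -75 from a start: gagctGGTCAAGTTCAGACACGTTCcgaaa
DDB2, chr11:47214975-47215004, plus strand, half-sites at 5 to 25 after a start: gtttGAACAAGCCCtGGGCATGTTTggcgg
FAS, chr10:88991304-88991333, plus strand, half-sites at -122 to -103 from a start: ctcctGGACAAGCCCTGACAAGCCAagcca
AEN, chr15:88621301-88621330, plus strand, half-sites at -34 to -15 from a start: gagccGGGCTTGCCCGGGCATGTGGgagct
FDXR, chr17:74872996-74873025, minus strand, half-sites at -31 to -2 from a start: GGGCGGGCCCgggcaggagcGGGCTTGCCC
PLK2, chr5:58460199-58460228, minus strand, 1 half-site at -132 to -123 from a start: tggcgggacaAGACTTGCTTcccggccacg

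Only DDB2 held a pair without mismatch, with 1 base between its half-sites. The pairs of MDM2, FAS and AEN were adjacent with 2 mismatches each, and that of FDXR had 2 mismatches and 10 bases between the half-sites. EI24, RPS27L and SESN1 held a single half-site, as PLK2 did. Of the 9 genes with either kind of match, 8 had enough reads to be tested for a difference between the groups, and their log2 fold changes of NRP-1 over control ran from -0.36 to 1.82 with a median of 0.14. The 20 genes with a window and no match had a median of -0.05 over a range of -1.94 to 1.92, beside a median of 0.02 over all genes tested. TNFRSF10B (log2 fold change -1.22) had no window and is in neither set.

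Library totals lay between 8243595 and 8448926 reads, summed over expected counts, which are estimated reads per gene and need not be whole. NRP1, the transfected gene, had 7 and 8 reads in the controls against 103 and 62 after transfection. Its log2 fold change of 3.38 (SE 0.42, adjusted p = 0.044) followed the labels. The biological coefficient of variation was 0.225 between the NRP-1 libraries and 0.064 between the controls. All 8 luminal epithelial markers were present, with mean levels between 8.53 and 1.24e+03 FPKM. Their summed levels were 6108 and 5927 CPM (reads scaled to library size) in the controls and 7261 and 6518 CPM in the NRP-1 libraries. In both NRP-1 libraries KRT8, KRT18, KRT19, GATA3 and FOXA1 lay above both controls, where 27.9% of all genes lay. EPCAM and CDH1 lay below both, where 28.3% lay, and ESR1 was below in NRP-1 replicate 2 and above in NRP-1 replicate 3. Of 8 markers of other cell types, 7 were listed, and COL3A1 (0, 0, 0 and 6 reads) and ACTA2 (2, 0, 0 and 3 reads) were near 0, with controls given first. CDH5 had 1 and 1 reads against 15 and 3, and PTPRC 15 and 10 against 9 and 17. CD68, a marker of macrophages, had 320 and 281 reads against 107 and 89 (log2 fold change -1.67, called lower at an adjusted p of 0.0423). COL1A1 had 1739 and 1740 reads against 1513 and 1357 (log2 fold change -0.34, adjusted p = 0.177). The summed level of those 7 was 260.3 and 253.7 CPM in the controls and 199.4 and 178.7 CPM in the NRP-1 libraries, and their part in the results below was not tested. Bulk RNA cannot tell fewer cells that express a gene from less RNA in each cell.

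All 34 genes were detected in every library, over a wide range of levels. FPKM, which is scaled to transcript length and to the number of mapped reads, allows genes to be ordered. In control cells TP53I11, a p53-induced protein, was highest at 59.2 ± 2.03 FPKM (SD, n = 2), followed by PERP, a desmosome protein that acts in p53-dependent death, at 55.7 ± 2.58, with both of its control values (57.5 and 53.9 FPKM) below both of those of TP53I11 (60.7 and 57.8 FPKM). CCNG2, an atypical cyclin, came next at 41.5 ± 0.742 FPKM, and GADD45A and GADD45B, small proteins induced by stress, at 38.0 ± 1.77 and 36.5 ± 7.06 FPKM, whose values overlapped. At the lower end stood PLK3 at 2.04 ± 0.566 FPKM, IGFBP3 at 0.805 ± 0.290 and FAS at 0.065 ± 0.0354. In control cells, 23 of the 34 genes lay at 10 FPKM or more.

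**Figure D1:**
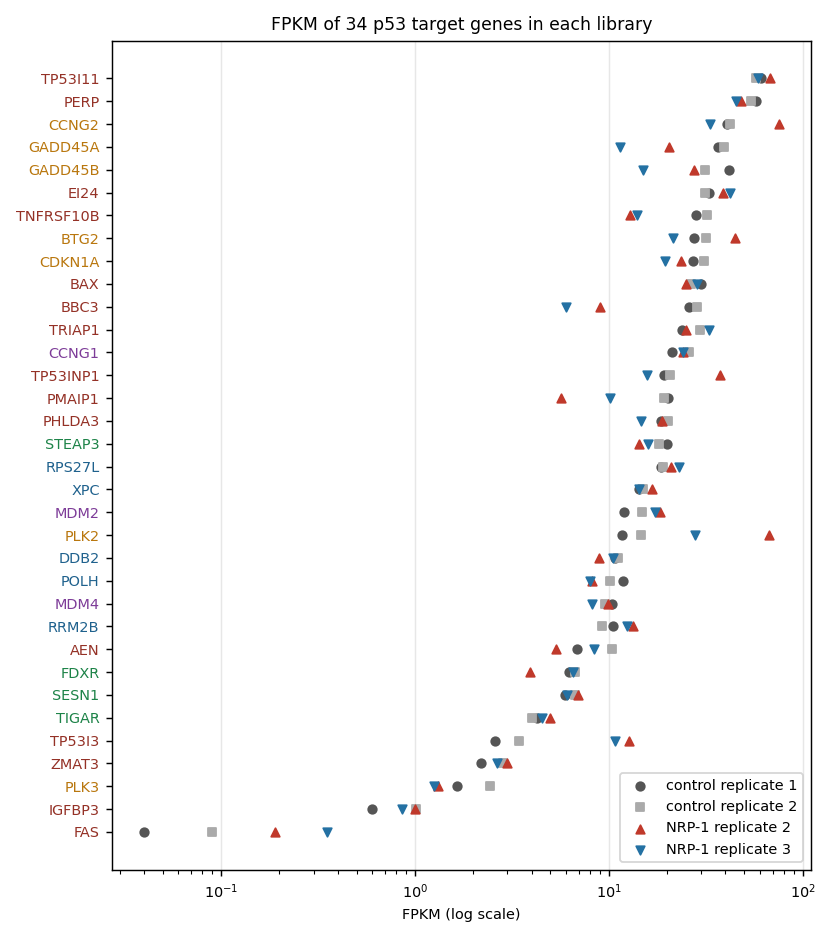
FPKM (log scale) of the 34 p53 target genes in each of the 4 libraries, ordered by the mean of the 2 controls, with 1 symbol per library and gene names coloured by role. Most genes lie between 2 and 60 FPKM, FAS lies far below the rest, and the triangles of the NRP-1 libraries leave the control symbols most clearly for PLK2, TP53I3, BBC3, PMAIP1 and GADD45A.

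Between the groups, TP53I3 rose and TNFRSF10B and BBC3 fell in BT-474 NRP-1 cells. These were the 3 genes called among the 33 with enough reads for the test, by the quasi-likelihood test of edgeR, with p-values adjusted by Benjamini-Hochberg over all 14298 genes tested and a threshold of 0.05. The share called was 9.09% of the members, against 1.09% of all genes tested. By direction, 1 member was called higher, against 0.413% of all genes, and 2 were called lower, against 0.678%. DESeq2 called 6 of the 33, against 6.8% of all genes: those 3, PLK2 as higher, and PMAIP1 and GADD45A as lower. An unadjusted p under 0.05 was seen for 11 of the 33, beside 22.9% of all genes. All 3 edgeR calls were close to the threshold and did not pass it without the filter on low counts (adjusted p between 0.106 and 0.113), nor with limma on log2 FPKM values (between 0.0783 and 0.0823). They were also lost when control replicate 1 or control replicate 2 was left out, as were the calls over all genes. The fit to all 4 libraries takes a common spread per gene for both groups. The biological coefficient of variation differed between the groups (0.225 for NRP-1 and 0.064 for control). Fits without NRP-1 replicate 2 or 3 assume that the remaining NRP-1 library varies like the controls. Their calls are given below beside those of all genes.

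The members did not move one way as a list. Their median log2 fold change was -0.0034, beside 0.02 over all genes tested, and 16 were positive and 17 negative. In 7 members both NRP-1 libraries lay above both controls, against 27.9% of all genes, in 13 both lay below, against 28.3%, and in 13 the groups overlapped, in CPM after TMM normalization. With library sizes alone, or in FPKM, 11 lay below, since MDM4 and PHLDA3 then overlapped. Outside both controls in either direction were 60.6% of the tested members, a share near the 56.2% of all genes. The labels do not say whether the replicates were separate cultures, so p-values measure only the spread between these libraries. Taken 1 gene at a time, an exact permutation test of 2 against 2 libraries could not give a two-sided p under 0.33.

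**Figure D2:**
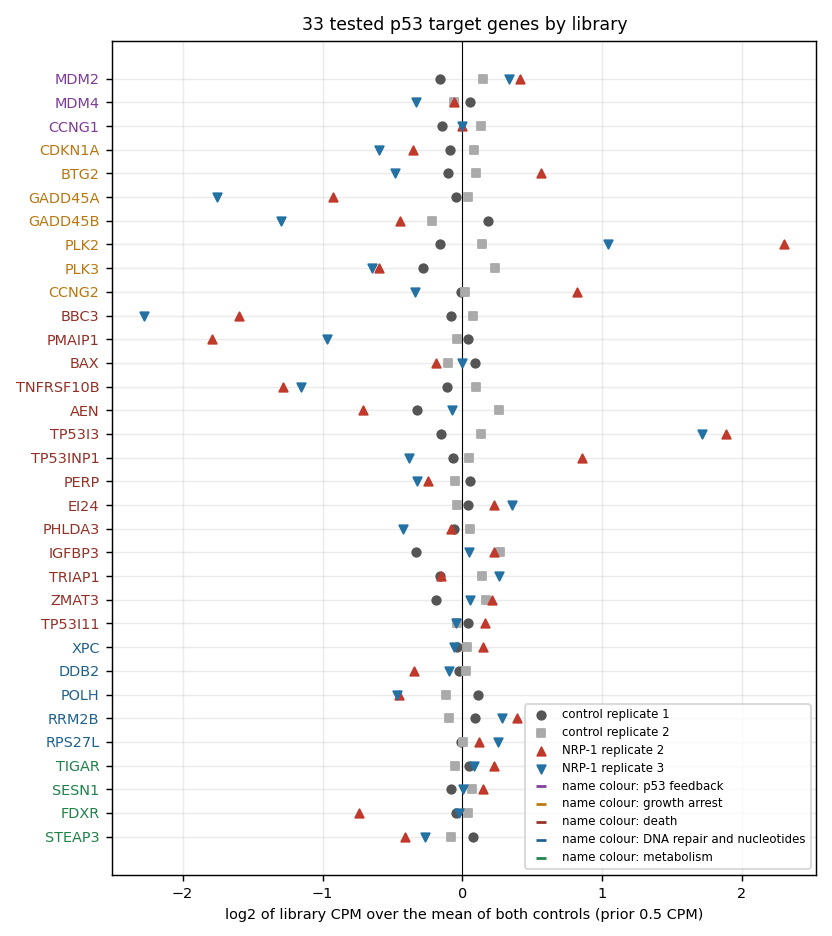
Level of 33 tested p53 target genes in each library as the log2 ratio of CPM over the mean of both controls, with 0.5 CPM added, grouped by role. The 2 NRP-1 libraries lie on the same side of the controls and far from them for TP53I3, PLK2, BBC3, PMAIP1, TNFRSF10B and GADD45A, and on opposite sides for BTG2, CCNG2 and TP53INP1.

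Of the 3 genes that act back on p53, 0 were called, beside 1.09% of all genes. MDM2, the ubiquitin ligase that degrades p53, had 749 and 938 reads in the controls and 1164 and 1110 in the NRP-1 libraries. Both NRP-1 values lay above both controls, at 17.9 ± 0.686 FPKM against 13.5 ± 2.08 (SD, n = 2 each). Its log2 fold change was 0.37 (95% interval 0.02 to 0.73), with an unadjusted p of 0.0429 and an adjusted p of 0.203 from edgeR. MDM4, the partner of MDM2 that masks the activation domain of p53, had 837 and 783 reads against 810 and 669, a log2 fold change of -0.19 (interval -0.54 to 0.16). CCNG1, a cyclin that recruits a phosphatase to MDM2, had 438 and 539 reads against 507 and 508, so both NRP-1 libraries fell between the controls. Its log2 fold change was -0.0034 with an SE of 0.15.

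The 7 genes of growth arrest held no edgeR call, beside 1.09% of all genes. Their log2 fold changes ran from -1.30 to 1.82 with a median of -0.47. CDKN1A encodes p21, the inhibitor of cyclin-dependent kinases through which p53 halts cells before S phase. It had 490 and 561 reads in the controls and 428 and 360 in the NRP-1 libraries, and both NRP-1 values were below both controls. The difference of -0.47 on the log2 scale (interval -0.85 to -0.10) did not pass the adjustment (adjusted p = 0.149). At 29.1 ± 2.70 FPKM against 21.5 ± 2.77, it was well expressed in both groups.

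PLK2, a polo-like kinase of the centrosome, had the largest gap among the growth arrest genes. It had 277 and 346 reads in the controls, 1614 in NRP-1 replicate 2 and 674 in NRP-1 replicate 3. Both NRP-1 libraries were high, and the first stood well above the second. The log2 fold change was 1.82 (SE 0.41) with an adjusted p of 0.0801 from edgeR and 4.23e-05 from DESeq2, and leaving out NRP-1 replicate 2 or 3 gave 1.04 and 2.32. PLK3, its relative in stress signalling, had 32 and 48 reads against 26 and 25, below both controls in each NRP-1 library but short of the test's threshold (log2 fold change -0.70, SE 0.34, adjusted p = 0.285).

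GADD45A, which binds PCNA and cyclin-dependent kinase 1 after DNA damage, had 420 and 452 reads in the controls and 237 and 132 in the NRP-1 libraries. Both NRP-1 values were low, the second more so, with a log2 fold change of -1.30 (interval -1.98 to -0.62), an adjusted p of 0.0761 from edgeR and 0.00143 from DESeq2. Its relative GADD45B had 472 and 361 reads against 318 and 175, also below both controls, with a log2 fold change of -0.82 (SE 0.30, adjusted p = 0.188).

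BTG2, an antiproliferative partner of the deadenylase complex, had 615 and 719 reads in the controls, 1026 in NRP-1 replicate 2 and 496 in NRP-1 replicate 3. CCNG2 had 1874 and 1936 reads against 3507 and 1570. In both genes 1 NRP-1 library was above both controls and the other below, and the log2 fold changes of 0.13 (SE 0.33) and 0.36 (SE 0.35) average over that difference.

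All 3 calls fell among the 15 genes of cell death, of which 14 were tested (21.4%, beside 1.09% of all genes). This count by role is a description, and no role was tested as a set. TP53I3, a quinone oxidoreductase also called PIG3 that raises reactive oxygen, had 30 and 38 reads in the controls and 142 and 126 in the NRP-1 libraries. The groups were far apart and the replicates of each close together. Its level was 11.8 ± 1.31 FPKM in BT-474 NRP-1 cells against 3.02 ± 0.622 in controls (SD, n = 2 each), a 3.79-fold difference in CPM and a log2 fold change of 1.92 (SE 0.25, interval 1.31 to 2.52, adjusted p = 0.0440). With any 1 library left out the log2 fold change stayed between 1.76 and 2.09.

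BBC3 encodes PUMA, a BH3-only protein that binds and neutralizes BCL2 proteins at the mitochondrion. It had 377 and 426 reads in the controls and 135 and 83 in the NRP-1 libraries. Both NRP-1 values were under every control value, at 7.49 ± 2.12 FPKM against 27.3 ± 1.96 (SD, n = 2 each). BBC3 was 3.84-fold lower in CPM, a log2 fold change of -1.94 (SE 0.25, interval -2.56 to -1.32, adjusted p = 0.0442). Leaving out 1 library gave values from -2.34 to -1.63.

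TNFRSF10B encodes DR5, a death receptor for the ligand TRAIL on the cell surface. It had 952 and 1107 reads in the controls and 438 and 480 in the NRP-1 libraries, so the replicates were close and the groups apart. Its level was 13.4 ± 0.82 FPKM against 30.2 ± 2.96 (SD, n = 2 each), 2.34-fold lower in CPM, with a log2 fold change of -1.22 (SE 0.14, interval -1.56 to -0.89, adjusted p = 0.0384). Unlike those of TP53I3 and BBC3, its expected counts were not whole in at least 1 library, as happens where reads map to more than 1 gene.

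PMAIP1 encodes NOXA, another BH3-only protein. It had 325 and 311 reads in the controls, 93 in NRP-1 replicate 2 and 167 in NRP-1 replicate 3. Both NRP-1 libraries were low, here the first more than the second, with a log2 fold change of -1.35 (SE 0.28), an adjusted p of 0.0748 from edgeR and 0.00167 from DESeq2. BAX, the pore-forming protein on which BH3-only proteins converge, had 216 and 191 reads against 185 and 211, with overlapping groups and a log2 fold change of -0.10 (interval -0.53 to 0.34).

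FAS, the other death receptor among the members, had 1 and 2 reads in the controls and 4 and 8 in the NRP-1 libraries, too few for the test. Summed over each group this was 12 reads against 3, a ratio of 3.84 after scaling to library size with a 95% counting interval of 1.04 to 21.2. Such intervals cover counting error only and leave out the spread between replicates.

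TP53INP1, a stress protein of p53 activation and autophagy, had 903 and 987 reads in the controls, 1785 in NRP-1 replicate 2 and 757 in NRP-1 replicate 3, on either side of the controls. PERP had 2067 and 1950 reads against 1760 and 1671, below both controls in each NRP-1 library (log2 fold change -0.29, interval -0.58 to 0.00, adjusted p = 0.221). EI24, a protein of the endoplasmic reticulum also called PIG8, had 622 and 595 reads against 742 and 814, above both controls (log2 fold change 0.29, interval -0.01 to 0.60, adjusted p = 0.232).
The intervals of PERP and EI24 end close to 0 and do not reach a change of 1 on the log2 scale.

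AEN, a nuclease of the nucleolus, had 178 and 271 reads against 141 and 222. PHLDA3, a competitor of Akt at the membrane, had 231 and 254 reads against 238 and 187. IGFBP3, a secreted binder of insulin-like growth factors, had 13 and 22 reads against 22 and 19. These 3 did not pass the test, with log2 fold changes of -0.36 (SE 0.30), -0.25 (SE 0.19) and 0.17 (SE 0.42) in that order. Their reads overlapped between the groups, though in CPM after TMM normalization PHLDA3 lay below both controls. The antiapoptotic TRIAP1, the RNA-binding protein ZMAT3 and TP53I11 overlapped between the groups and had log2 fold changes of 0.08 (SE 0.21), 0.14 (SE 0.20) and 0.06 (SE 0.13).

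DNA repair and nucleotide supply held 5 members and 0 calls, beside 1.09% of all genes. Their log2 fold changes ran from -0.46 to 0.34 with a median of 0.05. POLH, the polymerase that copies past ultraviolet lesions, had 826 and 716 reads in the controls and 586 and 579 in the NRP-1 libraries, lower in both (log2 fold change -0.46, interval -0.79 to -0.14, adjusted p = 0.121). RRM2B, the p53-inducible subunit of ribonucleotide reductase, had 431 and 383 reads against 557 and 517, higher in both (0.34 on the log2 scale, SE 0.14, adjusted p = 0.220). The damage sensors XPC and DDB2 of nucleotide excision repair had log2 fold changes of 0.05 (SE 0.14) and -0.22 (SE 0.19). RPS27L, a ribosomal protein relative that binds MDM2, had 0.19 (SE 0.17).

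Among the 4 metabolic members 0 were called, beside 1.09% of all genes, and their log2 fold changes lay between -0.35 and 0.16. TIGAR, which lowers glycolytic flux, had 295 and 278 reads in the controls and 350 and 317 in the NRP-1 libraries, above both controls by a small margin (0.16 on the log2 scale, interval -0.20 to 0.52). SESN1, a sestrin that restrains mTORC1, had 140 and 157 reads against 172 and 156. FDXR, the mitochondrial ferredoxin reductase, had 98 and 106 reads against 62 and 105, so 1 NRP-1 library matched the controls and the other was low. STEAP3, a ferrireductase, had 664 and 605 reads against 496 and 550, below both controls (-0.34 on the log2 scale, interval -0.67 to -0.01, adjusted p = 0.207).

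**Figure D3:**
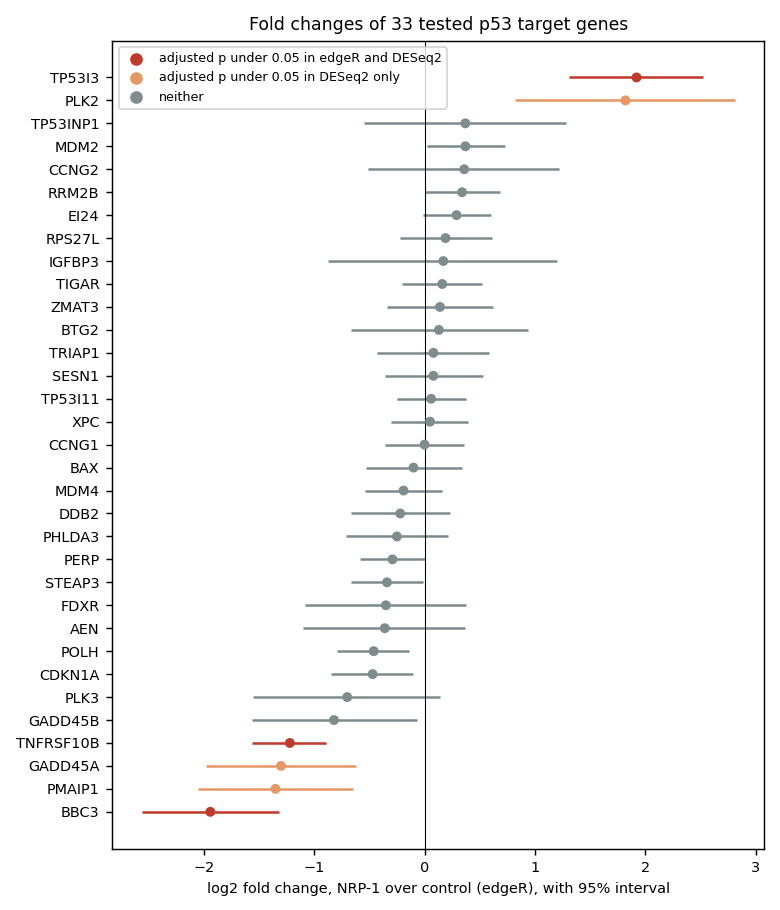
Log2 fold change of BT-474 NRP-1 over control cells for 33 tested p53 target genes (edgeR, 2 libraries per group), ordered by size, with 95% intervals as bars and colours for the genes past an adjusted p of 0.05 in edgeR and DESeq2, in DESeq2 only, or in neither. TP53I3 at 1.92 and BBC3 at -1.94 are the ends, and the wide bars of PLK2, TP53INP1, CCNG2 and BTG2 belong to genes whose 2 NRP-1 libraries differed.

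The 2 NRP-1 libraries were then compared with each other. An absolute log2 ratio of at least 1 between the NRP-1 libraries was seen in 4 of the 33 members, against 6.68% of all genes, and all 4 were higher in NRP-1 replicate 2, a direction that held 3.04% of all genes. Between the controls 0 members differed by that much, against 1.23% of all genes, and the largest absolute log2 ratio was 0.60, for IGFBP3. PLK2 was 2.40-fold higher in NRP-1 replicate 2 than in NRP-1 replicate 3 (95% counting interval 2.19 to 2.63), TP53INP1 2.36-fold (2.17 to 2.57), CCNG2 2.24-fold (2.11 to 2.38) and BTG2 2.07-fold (1.86 to 2.31). All 4 counting intervals lie above 1, but these genes were picked by the same ratio, so the intervals test nothing further. GADD45B (1.82, lower bound 1.51), GADD45A (1.80, interval 1.45 to 2.24) and BBC3 (1.63, 1.23 to 2.17) were also higher in NRP-1 replicate 2. By less, so were PHLDA3 (1.27, 1.05 to 1.55), MDM4 (1.21, 1.09 to 1.35), CDKN1A (1.19, 1.03 to 1.37), XPC (1.16, 1.02 to 1.32) and TP53I11 (1.15, 1.08 to 1.23). PMAIP1 (0.558, 0.428 to 0.723), FDXR (0.591, 0.425 to 0.817), AEN (0.636, 0.511 to 0.789) and TRIAP1 (0.749, 0.632 to 0.886) were lower in NRP-1 replicate 2. The share of all genes with an interval on either side of 1 was not counted.

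In CPM after TMM normalization, NRP-1 replicate 2 lay above both controls and NRP-1 replicate 3 below both in 5 members: BTG2, CCNG2, TP53INP1, TP53I11 and XPC. That pattern was seen in 8.85% of all genes. For TP53I11 and XPC it depended on the scaling. In FPKM, NRP-1 replicate 3 of TP53I11 (58.6) lay between the controls (60.7 and 57.8), and that of XPC (14.3) was level with control replicate 1 (14.3). Set against the mean of the same 2 controls, the members had a median log2 ratio of -0.06 in NRP-1 replicate 2 and of -0.07 in NRP-1 replicate 3. An absolute log2 ratio of at least 1 was reached by 5 members in the first, against 6.92% of all genes, and by 6 in the second, against 10.2%.

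**Figure D4:**
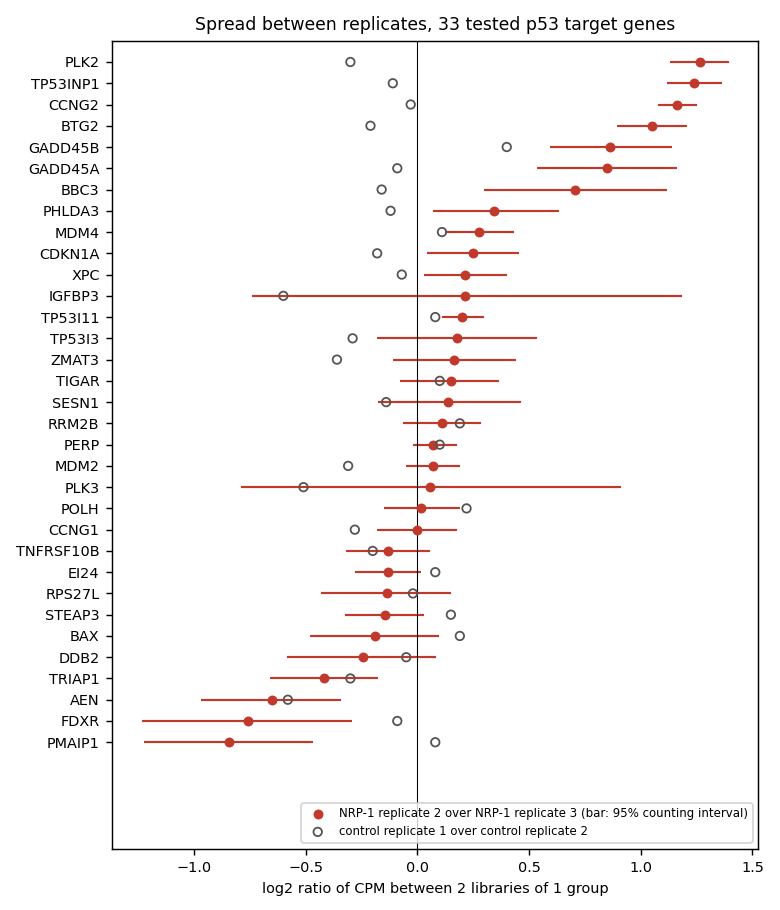
Log2 ratio of CPM between the 2 libraries of a group for 33 tested p53 target genes: NRP-1 replicate 2 over NRP-1 replicate 3 (filled points, bars are 95% counting intervals) and control replicate 1 over control replicate 2 (open circles). PLK2, TP53INP1, CCNG2 and BTG2 stand beyond 1 between the NRP-1 libraries, and every open circle lies within 0.60 of 0.

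Of the members, BBC3, PMAIP1, TNFRSF10B and GADD45A are also known as targets of ATF4 or CHOP, factors of the integrated stress response, which is set off by amino acid shortage and unfolded proteins. All 4 lay below both controls in both NRP-1 libraries, where 28.3% of all genes lay, with log2 fold changes from -1.94 to -1.22 and a median of -1.32, beside 0.02 for all genes tested. edgeR called 2 of them, beside 1.09% of all genes, and DESeq2 all 4, beside 6.8%. The other 29 tested members had a median of 0.06 and 1 call by edgeR, and 7 lay above and 9 below both controls, beside 27.9% and 28.3% of all genes. This grouping was made with the members' values known. The 4 are also the tested members with the lowest log2 fold changes, followed by GADD45B at -0.82. Their position, median, calls and contrast with the other 29 may follow from that choice and are a description only. DDIT3, ATF3, ATF4 and TRIB3 were looked up after the members' values were seen. The paper had already reported DDIT3 and ATF3 as lower by quantitative PCR, with similar levels in empty-plasmid and wild-type cells. DDIT3, which encodes CHOP, had 2621 and 2693 reads in the controls and 623 and 555 in the NRP-1 libraries and fell by 2.23 on the log2 scale (SE 0.13, adjusted p = 0.0171). ATF3, a stress-induced factor, had 344 and 280 reads against 85 and 26 (log2 fold change -2.55, adjusted p = 0.068), and ATF4 had 5080 and 5289 against 2978 and 4777 (-0.48, adjusted p = 0.275). For TRIB3, a pseudokinase induced by CHOP, the log2 fold change was -0.57 (adjusted p = 0.173). Their part in the lower levels of the 4 members was not tested. The motif TGATGNAA was searched on both strands as the core of sites bound by ATF4 with C/EBP proteins. It lay in the promoter window of PLK3 alone among the 29 members with a window (3.45%), against 4.46% of all genes. TNFRSF10B had no window and was not searched, and a motif outside the windows would be missed.

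Among 48 other known p53 targets, 44 were tested, 1 was called higher and 2 lower (6.82%, beside 1.09% of all genes). GDF15, a secreted stress cytokine, had 2349 and 2416 reads in the controls and 736 and 525 in the NRP-1 libraries and fell by 1.98 on the log2 scale (SE 0.18, adjusted p = 0.0345). SESN2, a sestrin like SESN1, had 698 and 749 reads against 166 and 284 and fell by 1.74 (SE 0.26, adjusted p = 0.0483). Both are also known to be induced in the integrated stress response. ALDH4A1, a mitochondrial enzyme of proline breakdown, had 396 and 490 reads against 1001 and 993 and rose by 1.11 (SE 0.14, adjusted p = 0.0440). The median of this list was 0.07, with 14 genes above and 12 below both controls (59.1% together, near the 56.2% of all genes), and DESeq2 called 5 of them, beside 6.8% of all genes. Without control replicate 1 or 2 the count of calls was 0 each time, and without NRP-1 replicate 2 or 3 it was 19 and 17.

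Of 25 regulators of p53, edgeR's quasi-likelihood test called 0 at an adjusted p under 0.05 (1.09% of all genes), while 9 had an unadjusted p under 0.05 (22.9% of all genes) and DESeq2 called 4 (6.8% of all genes). Their median log2 fold change was 0.12. Without NRP-1 replicate 2 or 3, edgeR called 11 and 9. RPL5, a ribosomal protein that binds MDM2 when ribosome assembly fails, had the lowest p, with 5540 and 4794 reads in the controls and 3455 and 3499 in the NRP-1 libraries (log2 fold change -0.63, adjusted p = 0.0753). The acetyltransferase EP300 had 845 and 940 reads against 1352 and 1361 (0.55, adjusted p = 0.0792). HIPK2, a kinase that phosphorylates p53, had 1100 and 1128 reads against 1600 and 1964 (0.62, adjusted p = 0.0821). In each of these 3 genes the groups did not overlap, and none of them passed the test in edgeR.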

How the data were processed

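RNA of BT-474 control cells and of BT-474 NRP-1 cells was sequenced in 2 libraries each. The authors deposited, per library, an expected count per gene, which is not normalized, and an FPKM value, which is scaled for transcript length and mapped reads. The tools named in the submitters' processing notes are bcl2fastq 2.16, HISAT2 2.0.1, Bowtie2 2.2.5 and RSEM. Those notes name more than 1 genome build, so no coordinates of the files were used, and the promoter coordinates are those of RefSeq. How strand was used in counting is not given in the sources used here, so reads of a gene and of an overlapping or antisense gene cannot be told apart. A deposited table of the authors' own comparison, with group means, log2 ratios and a probability, was not used.

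Gene IDs were matched to symbols in the RefSeq genes of GRCh38.p14 (99.4% of 18882), and a gene missing from a library was taken as 0. Expected counts, of which 32.4% to 32.9% per library were not whole, were rounded. Of the 34 members, 25 had whole counts in every library. Counts were tested with edgeR 4.0.16 in R 4.3.3 (filterByExpr, TMM with factors between 0.9861 and 1.014, glmQLFit and glmQLFTest, group as the only term). The SE of each fold change on the log2 scale was derived from its F statistic. Alternatives were DESeq2 1.42.0, library sizes without TMM, no filter, limma 3.58.1 for genes at a mean of 0.5 FPKM or more, with a pseudocount of 1 or 0.1 FPKM on the log2 scale, and the omission of each library. Python 3.11.15, pandas 2.3.3 and scipy 1.17.1 were used for the promoter search, the levels and the counting intervals. The scripts were tested on simulated data.

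The members, the other lists and the tests were chosen with earlier results of these data known. All members are named, and from the lists of other p53 targets and of regulators the genes past an adjusted p of 0.05 and the 3 with the lowest p. The gene of p53 itself was not analysed here.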

Additional observations from a re-analysis of the deposited data

How the results depend on the processing

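The 3 called members held their direction under every alternative and their call with library sizes in place of TMM and with DESeq2. Of 3 members called, 0 remained without the filter on low counts and 0 with either form of limma, and DESeq2 called 6. With a library left out the number ran from 0 to 18. For all genes the 156 calls became 0 without the filter, 953 with DESeq2, 7 and 3 with limma at a pseudocount of 1 and 0.1 FPKM, and 0 to 5414 with a library left out. For the other p53 targets, 3 calls became 0 without the filter, 5 with DESeq2, 0 and 0 with limma, and 0 to 19 with a library left out. For the regulators, 0 calls became 4 with DESeq2 and 0 to 11 with a library left out. Each of these counts was 0 without control replicate 1 and without control replicate 2. The high counts came without NRP-1 replicate 2 or 3, where the lone NRP-1 library is assumed to vary like the 2 controls, which varied less. The median of the members ran from -0.13 to 0.02 with a library left out.

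Over 33 members, 150 of 165 values under the other settings kept direction and side of the threshold, 9 lost and 3 gained a call, and 3 changed sign. These 3 were those of CCNG1, at 0.03 with library sizes and 0.04 and 0.04 with limma. With a library left out, 89 of 132 kept both, 6 lost and 26 gained a call, and 11 changed sign. The signs that changed belonged to CCNG1 (-0.14 to 0.14), BTG2 (-0.50 to 0.56), CCNG2 (-0.35 to 0.82), BAX (-0.19 to 0.00011), TP53INP1 (-0.39 to 0.86), IGFBP3 (-0.15 to 0.59), TRIAP1 (-0.15 to 0.26), ZMAT3 (-0.04 to 0.33), TP53I11 (-0.05 to 0.16) and XPC (-0.07 to 0.15). For BTG2, CCNG2 and TP53INP1 the sign turned without NRP-1 replicate 2 (adjusted p = 0.00018, 0.00237 and 0.00138 in that order).

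No paired analysis was made. The groups share only replicate number 2, and the labels do not say that an equal number marks a pair. At these depths FAS, IGFBP3 and PLK3 were limited by reads.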
